A study of Mus musculus with 6 samples.

Results

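Txnip, its antisense RNA gene Gm15441, the arrestin-domain genes Arrdc1, Arrdc2, Arrdc3 and Arrdc4, and the thioredoxin gene Txn1 were examined in bulk liver RNA of p75NTR-deficient mice. The genes were chosen by name, and all 7 members were found among the 49671 genes of the count table and passed the filter on low counts, which kept 13773 genes. Gm15441 was chosen because it had one of the largest decreases in these same livers, and the others because they overlap it, bind the product of Txnip or share its protein family. The KO to WT values of Gm15441 are therefore given as a description, with no test.

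Liver was taken from mice aged 6 months of the Jackson strain labelled B6.1129S4-Ngfr/J. The control group held 3 wild type (WT) libraries (replicates 1, 2 and 3) and the other group 3 p75NTR KO libraries (replicates 1, 2 and 4), all from mice on a standard diet with no drug or diet treatment in the labels. Values of single libraries are given in that order, WT first. The KO allele, made in the germ line, lacks an inner exon of Ngfr, the gene of p75NTR, so reads of its other exons can still be counted. The libraries held 27107209 to 32664149 counts. Ngfr had 78 to 144 counts in the WT libraries and 27 to 53 in the KO libraries. KO replicate 4 held 4712 counts of 4 Y-linked genes and the other 5 libraries 0 to 2, and no label gives the sex of any mouse. The level of KO replicate 4 lay outside the range of the other 5 libraries for 42.8% of the genes tested, and for 5 of the 7 members. Values without that library are therefore given beside those of the members and of the gene lists. Hepatocyte markers such as Alb were abundant in every library (summed level of 8 markers 102780 to 125953 CPM, which here are counts scaled to library size with TMM factors). Both groups carry the same strain label, and nothing in the labels names animals, litters or dates, so p-values measure the spread between these libraries only.

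Thioredoxin, the product of Txn1, is a small protein that reduces disulfide bonds in other proteins. Txnip binds reduced thioredoxin through a disulfide bond and also promotes the removal of glucose transporters from the cell surface. It belongs to the alpha-arrestins, as do the Arrdc proteins, which carry arrestin folds and proline-rich motifs that recruit ubiquitin ligases of the NEDD4 family to membrane cargo. Txnip and Arrdc4 are classical targets of the glucose-sensing factors MondoA and ChREBP. In mouse liver, Gm15441 is known as a long non-coding RNA that depends on PPAR-alpha, the nuclear receptor of the fasting response, and that restrains Txnip.

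Txnip lies on the plus strand of chromosome 3 of GRCm38 from 96557957 to 96561883, and Gm15441 on the minus strand from 96555765 to 96566801. The annotation gives Gm15441 2 transcripts. The longer one, Gm15441-202, has 4 exons and shares 606 exon bases with Txnip, which are 36.2% of the exon bases of Gm15441 and 19.4% of those of Txnip. Of these, 441 bases cover the start and the first coding bases of Txnip (96557957 to 96558397) and 165 lie inside a coding exon (96559678 to 96559842). The shorter one, Gm15441-201, has 3 exons and shares no exon base with Txnip. It starts 142 bases before the Txnip start and runs the other way.

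**Figure D1:**
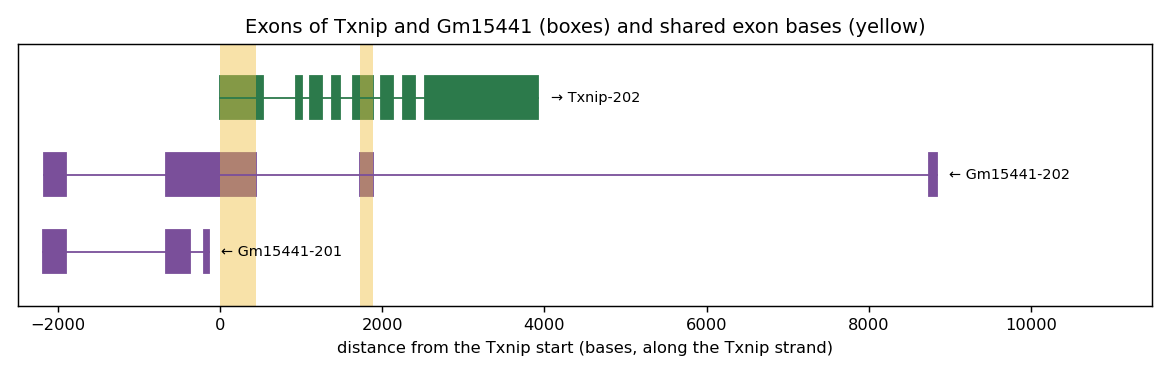
Exons (boxes) of the main Txnip transcript and of both Gm15441 transcripts, by distance in bases from the Txnip start; arrows give the direction of transcription and yellow marks the 606 shared exon bases. Gm15441-202 crosses the first Txnip exon and an inner coding exon, and Gm15441-201 ends its exons before Txnip begins.

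The 165-base exon of Gm15441-202 that is wholly antisense to a Txnip coding exon is printed as the shorter of the 2 shared stretches, in both of which a read can be placed in one gene or the other by strand alone. It is given 5′ to 3′ on the Gm15441 strand, from the GENCODE M21 transcripts (GRCm38), and its reverse complement was the Txnip sequence, base for base.
Gm15441-202 exon (chr3:96559678-96559842, minus strand): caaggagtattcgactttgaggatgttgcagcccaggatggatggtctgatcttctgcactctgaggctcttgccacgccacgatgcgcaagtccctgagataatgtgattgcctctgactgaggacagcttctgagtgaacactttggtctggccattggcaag
The strand setting of the read counting, not given in the sources used here, was looked for in the table itself. Of 73 genes whose exons lie wholly under exons of an opposite-strand gene with at least 6000 counts over the 6 libraries, 56 had counts above 0. Over all 73 genes, 17 of them at 0, counts had a median of 0.0464% of those of the opposite gene and reached at most 7.49%. Counting without strand would leave such genes at 0 if it dropped ambiguous reads, or give them the reads of the opposite gene if it kept them. The values of Gm15441 and Txnip are therefore read here as separate by strand, although the exons were taken from a later annotation release than the one used for counting.

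The sequence before the Txnip start holds the beginning of Gm15441-201 on the other strand, and it is shown with that of Arrdc4 because both genes are known to respond to glucose. RefSeq windows of GRCm38.p6, from 250 bases before to 50 after a start, were found for 6 of the 7 members, all but Gm15441. They were searched on both strands for 2 copies of CACGNG with 5 bases between them, as in a carbohydrate response element, the E-box CACGTG, the CCAAT box, the forkhead motif GTAAACA and 2 copies of AGGTCA with 1 base between them, the direct repeat of PPAR response elements. Capitals mark the letters that these motifs fix in the 250 bases before each start, 5′ to 3′ on the strand of the gene.
Txnip (chr3:96557707-96557956, plus strand): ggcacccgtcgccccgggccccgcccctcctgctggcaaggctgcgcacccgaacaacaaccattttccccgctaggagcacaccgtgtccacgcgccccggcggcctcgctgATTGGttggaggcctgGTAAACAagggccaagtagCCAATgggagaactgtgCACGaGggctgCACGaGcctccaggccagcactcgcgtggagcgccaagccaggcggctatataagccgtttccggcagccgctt
Arrdc4 (chr7:68749239-68749488, minus strand): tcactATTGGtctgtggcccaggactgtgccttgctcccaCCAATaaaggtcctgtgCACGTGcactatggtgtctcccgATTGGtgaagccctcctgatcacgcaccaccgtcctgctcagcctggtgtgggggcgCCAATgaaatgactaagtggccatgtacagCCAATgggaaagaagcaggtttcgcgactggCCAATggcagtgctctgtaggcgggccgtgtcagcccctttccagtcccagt
Txnip held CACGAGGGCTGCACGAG from base -85, counted from its start, a match to the first motif, which 0.0487% of all 32851 windows hold. It also held GTAAACA from base -121 (3.65% of windows) and 2 CCAAT boxes (11.7% of windows have at least 2). The start of Gm15441-201 falls at base 109 of the printed Txnip run. Arrdc4 held 6 CCAAT boxes, as many as 0.0791% of windows, and a single CACGTG (7.15% of windows). Arrdc2 held 3 CCAAT boxes (3.37% of windows have at least 3), and Arrdc3 held 1, which 2 of its 3 windows share (37.4% of windows have any). Arrdc1 and Txn1 held none of the motifs, and the AGGTCA repeat was in no window of the members (0.0396% of all windows). These are matches of letters only, not sites shown to be bound.

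Gm15441 was the member with the largest difference between the groups. It had 183, 159 and 56 counts in the WT livers against 24, 27 and 20 in the KO livers. As levels, these were 5.94, 5.11 and 2.03 CPM against 0.760, 0.834 and 0.686 CPM. All KO livers were below all WT livers, and the KO livers lay close together while WT replicate 3 lay well below the other WT livers. The WT mean of 4.36 ± 2.06 CPM (SD, n = 3) was 5.74 times the KO mean of 0.760 ± 0.0743 CPM (SD, n = 3), and the KO to WT log2 ratio fitted by edgeR was -2.51 with a standard error of 0.42. Leaving out KO replicate 4 gave -2.44, and leaving out WT replicate 3 gave -2.85. Among all genes tested, the WT and KO ranges were apart for 12.4% (6.36% lower and 6.02% higher in KO). Gm15441 was the only member whose ranges were apart, and since it was chosen by this contrast nothing is read from that. Bulk liver RNA cannot tell fewer cells that express a gene from less RNA per cell.

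Txnip was lower in KO than in WT livers on average, but the groups overlapped. The WT livers had 129, 211 and 198 CPM and the KO livers 81.7, 163 and 104 CPM. KO replicate 2 lay above WT replicate 1, so only KO replicates 1 and 4 were below every WT liver. Mean levels were 179 CPM in WT (SD 44.2, n = 3) and 116 CPM in KO (SD 41.8, n = 3). The log2 ratio of -0.63, with a standard error of 0.27, did not pass the test: the adjusted p was 0.696 in edgeR's quasi-likelihood test and 0.331 in DESeq2. Leaving out KO replicate 4 gave -0.54 with an adjusted p of 0.520 in edgeR.

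**Figure D2:**
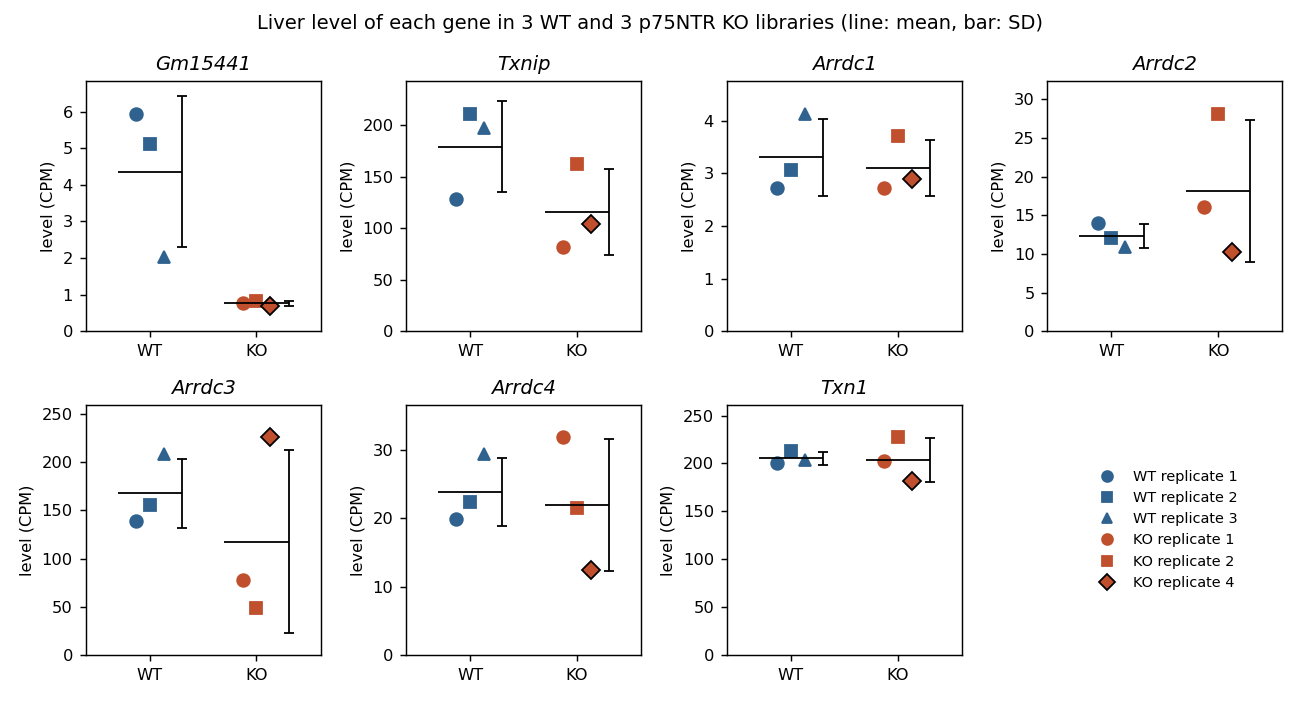
Level in CPM (y axis, from 0) of each of the 7 genes in the 3 WT (blue) and 3 KO (orange) libraries; lines are group means, bars are SD and KO replicate 4 has a black edge. Gm15441 is below 1 CPM in all KO livers, and KO replicate 4 is the highest library for Arrdc3 and the lowest for Gm15441, Arrdc2, Arrdc4 and Txn1.

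The antisense and the sense RNA did not keep a fixed ratio. For each 100 Txnip counts the WT livers had 4.62, 2.42 and 1.03 Gm15441 counts and the KO livers 0.931, 0.513 and 0.659. WT replicate 3 was thus close to KO replicate 1. The log2 ratio of the counts was -5.47 ± 1.09 (SD, n = 3) in WT and -7.20 ± 0.43 (SD, n = 3) in KO, a difference of -1.73, or -2.30 without WT replicate 3 and -1.21 without WT replicate 1. WT replicate 1 had the highest Gm15441 and the lowest Txnip level of the WT livers. Scaled to the exon bases of each gene, Gm15441 stood at 8.60, 4.51 and 1.91 per 100 of Txnip in WT and at 1.73, 0.956 and 1.23 in KO. Over the 6 libraries, the Pearson correlation of the log2 levels of Gm15441 and Txnip was 0.54, given as a description of 6 points that share their group difference.

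**Figure D3:**
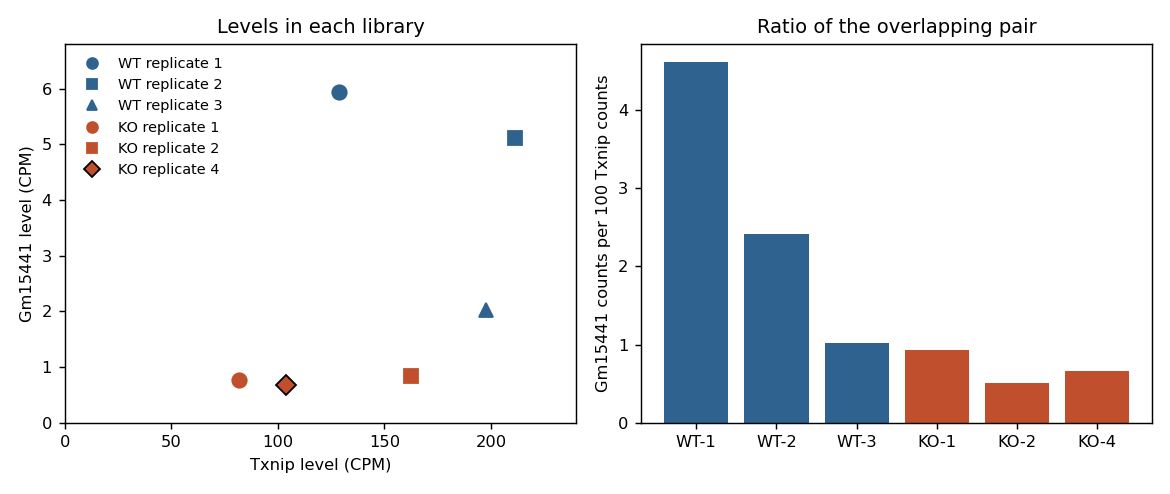
Left, level of Gm15441 against that of Txnip (both in CPM) in each library; right, Gm15441 counts for each 100 Txnip counts. The 3 KO livers sit low on the Gm15441 axis while Txnip spans 81.7 to 163 CPM, and WT replicate 3 has a ratio of 1.03, near the 0.931 of KO replicate 1.

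Arrdc3, an alpha-arrestin that acts on beta-adrenergic receptors and has been tied to insulin action in mouse liver, was the member that depended most on KO replicate 4. It lies on chromosome 13 of GRCm38 from 80883384 to 80896042. The WT livers had 139, 156 and 208 CPM. In KO replicates 1 and 2 they were 77.5 and 48.8 CPM, below every WT liver, while KO replicate 4 had 226 CPM, above every other library. Over all libraries the log2 ratio was -0.51 with a standard error of 0.49, and edgeR gave an adjusted p of 0.916. Leaving out KO replicate 4 moved it to -1.40 with a standard error of 0.23, which passed the test (adjusted p 0.0343 in edgeR and 9.2e-09 in DESeq2). Only 2 KO livers remain in that fit, in which edgeR called 0.808% of all genes (0.454% lower and 0.355% higher), and the WT range was apart from those 2 livers for 30.1% of genes. Over the 6 libraries left out in turn, Arrdc3 was between -1.40 and -0.14, the last without KO replicate 2. KO replicate 4 is the library with Y-linked counts, and sex, animal and library cannot be told apart in it.

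Arrdc2, another alpha-arrestin, had the opposite layout in the KO livers. It lies on chromosome 8 from 70835129 to 70839720. The WT livers had 14.0, 12.1 and 10.9 CPM and the KO livers 16.1, 28.2 and 10.2 CPM. KO replicates 1 and 2 were above every WT liver and KO replicate 4 was below all of them. The log2 ratio was 0.56 with a standard error of 0.32 over all libraries, and the adjusted p in edgeR was 0.820. Leaving out KO replicate 4 gave 0.85 with a standard error of 0.23, for which edgeR gave an adjusted p of 0.167 and DESeq2 0.0198, so that call depended on the tool. Leaving out KO replicate 2, the highest library, gave 0.10.

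No difference beyond the spread between livers was found for the other members. Arrdc4, which lies on chromosome 7 from 68736995 to 68749241, had 19.8, 22.4 and 29.4 CPM in WT livers against 31.9, 21.5 and 12.5 CPM in KO livers. The KO livers thus spanned the whole WT range and beyond it on both sides, and edgeR gave a log2 ratio of -0.12, a standard error of 0.31 and an adjusted p of 0.972. The sign turned when KO replicate 4 was left out (0.16). The order of the libraries was not that of Txnip, the other glucose-responsive alpha-arrestin: KO replicate 1 had the highest Arrdc4 and the lowest Txnip level. Arrdc1, known for driving the budding of small vesicles from the cell surface, lies on chromosome 2 from 24925352 to 24935252 and had 2.72 to 4.13 CPM over the 6 libraries. edgeR gave it a log2 ratio of -0.09, a standard error of 0.26 and an adjusted p of 0.979, and -0.029 when KO replicate 4 was left out.

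Txn1, on chromosome 4 from 57943373 to 57956411, was the steadiest member. The WT livers had 199.97, 213 and 204 CPM and the KO livers 203, 227 and 181 CPM, so that the highest library was 1.25 times the lowest. The log2 ratio was -0.011 with a standard error of 0.12 and an adjusted p of 0.997 in edgeR, and 0.072 when KO replicate 4 was left out.

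Over all 6 libraries, 0 of the 6 members other than Gm15441 had an adjusted p under 0.05 by edgeR, DESeq2 or limma-voom. Over all genes tested, edgeR called 0% of 13773, although 988 (7.17%) had an unadjusted p under 0.05. DESeq2 called 1.22% of the genes it tested (0.608% lower and 0.608% higher) and limma-voom 0.0363% (0.029% lower and 0.00726% higher). Without KO replicate 4, edgeR called 1 of these 6 members, Arrdc3, and DESeq2 called 2, Arrdc2 and Arrdc3, against 3.08% of all genes by DESeq2 (1.74% lower and 1.33% higher). The list was drawn up with results known, so these counts describe the members and are not evidence about the family.

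**Figure D4:**
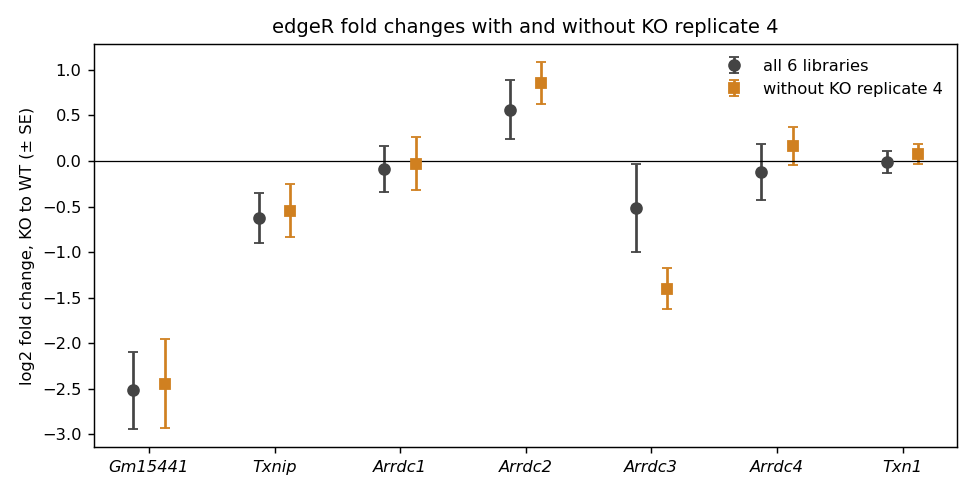
Log2 fold change of KO to WT by edgeR (points) with its standard error (bars) for each of the 7 genes, over all 6 libraries (circles) and without KO replicate 4 (squares). Gm15441 is near -2.5 in both, Arrdc3 goes from -0.51 to -1.40 and Arrdc2 from 0.56 to 0.85.

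Levels differed widely among the members. Per kilobase of exon, Txn1 was the most abundant in WT livers with 196 ± 6.32 CPM per kb (SD, n = 3), followed by Txnip with 57.4 ± 14.2 and Arrdc3 with 26.8 ± 5.76 CPM per kb. Arrdc4 had 5.92 ± 1.23, Arrdc2 3.81 ± 0.489, Gm15441 2.60 ± 1.23 and Arrdc1 1.32 ± 0.292 CPM per kb. In this order the WT ranges of Arrdc2 and Gm15441 overlapped, as did those of Gm15441 and Arrdc1, and the other neighbours were apart. In KO livers Gm15441 had 0.454 ± 0.0443 CPM per kb and was the lowest, below Arrdc1 with 1.24 ± 0.211. Arrdc5, the remaining gene of the family, had 0 counts in all 6 libraries. The spread between WT livers, as SD over mean, was 3.23% for Txn1, 12.8% to 24.7% for the coding arrestin genes and 47.3% for Gm15441.

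Within 100 kb of Txnip, 16 other genes are annotated in the table, of which 7 were tested. Their log2 fold changes were between -0.48 and 0.39. None of them had an unadjusted p under 0.05 by edgeR, against 7.17% of all genes (lowest adjusted p = 0.793, or 0.489 without KO replicate 4). Hfe2, which encodes the iron regulator hemojuvelin and lies before Txnip, had mean levels of 74.9 CPM in WT (SD 5.18, n = 3) and 66.8 CPM in KO (SD 9.23, n = 3). Of the tested neighbours, only Lix1l had WT and KO ranges that were apart, against 12.4% of all genes, so nothing is read from it. It had 6.66 CPM in WT (SD 1.06) and 8.26 CPM in KO (SD 0.273), with an adjusted p of 0.806 in edgeR.

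The genes whose levels followed Gm15441 most closely over the 6 libraries were Fahd1, Slc22a23, Uck1, Nnt and Srr, with Pearson correlations of log2 levels of 0.997, 0.996, 0.993, 0.991 and 0.988 among 12026 genes with a mean of at least 1 CPM. For Txnip they were Gpx7, Fastkd3, Ehbp1, Tdp2 and Letmd1, with 0.985, 0.983, 0.976, 0.975 and 0.970. With 6 points and so many genes, high values arise easily, and they describe likeness in these libraries only. Fahd1 had 65.1 CPM in WT and 50.1 CPM in KO on average, and Uck1, a uridine-cytidine kinase, 36.3 and 21.6 CPM.

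Genes of the thioredoxin system, NEDD4 family ligases and other arrestins, which act with or resemble the members, gave no call between the groups. edgeR called 0% of all 13773 genes and DESeq2 1.22% of those it tested, so nothing is read from the absence of calls. Of 21 thioredoxin system genes tested, 9 had positive and 12 negative log2 fold changes, the median was -0.04 and 0 had an unadjusted p under 0.05 by edgeR or a call by DESeq2. The median of that list was 0.072 without KO replicate 4, again with 0 calls by either tool, against 0.808% of all genes by edgeR and 3.08% by DESeq2. The median over all genes tested was 0 to 2 decimals. The peroxiredoxin genes Prdx1 and Prdx6, the most abundant of this list, had log2 fold changes of -0.13 and -0.19. Of 10 NEDD4 family ligases and their adaptors tested, 5 were positive and 5 negative with 0 calls by either tool and a median of 0.03, which was -0.081 without KO replicate 4. Itch, a ligase that marks Txnip for degradation, had a log2 ratio of 0.17 (standard error 0.12). The beta-arrestin genes Arrb1 and Arrb2 had -0.06 and -0.32. Of 9 genes of the NLRP3 inflammasome, a complex that Txnip can bind, 0 were called by edgeR or DESeq2. The adaptor gene Pycard, 1 of the 9, had an unadjusted p under 0.05 by edgeR, against 7.17% of all genes. Pycard had mean levels of 2.37 CPM in WT and 1.18 CPM in KO, with an adjusted p of 0.569 in edgeR. Itch, Arrb1, Arrb2 and Pycard were named after their values were seen.

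The factors that act on Txnip and Arrdc4 were also measured. Mlxip, the gene of MondoA, had 9.67 CPM in WT and 10.1 CPM in KO, a log2 ratio of 0.06. Mlxipl, the gene of ChREBP, had 139, 148 and 167 CPM in the WT livers against 97.0, 114 and 187 CPM in the KO livers. Like Arrdc3, it was below every WT liver in KO replicates 1 and 2 and above all of them in KO replicate 4, and edgeR gave a log2 ratio of -0.19 with an adjusted p of 0.940. Leaving out KO replicate 4 moved Mlxipl to -0.51, with an adjusted p of 0.133 in edgeR and 0.0157 in DESeq2. Of 15 MondoA and ChREBP factors and targets tested, 11 were positive and 4 negative, with a median of 0.12. edgeR called 0 of the 15 and DESeq2 1 lower, against 0.608% of the genes it tested. That gene was the glycerol phosphate dehydrogenase gene Gpd1 (log2 fold change -0.56, adjusted p = 0.0189 by DESeq2). The median of that list was -0.064 without KO replicate 4, the opposite sign. DESeq2 then called 2 lower, Gpd1 and Mlxipl, against 1.74% of the genes it tested. Mlxip and Mlxipl were named for their role after their values were seen.

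Targets of PPAR-alpha, the factor on which Gm15441 is known to depend, were lower in KO livers as a list. Relative to the WT mean, the median log2 level of 20 targets was 0.15, 0.04 and -0.17 for the WT livers and -0.48, -0.44 and -0.55 for the KO livers. WT replicate 3, with the lowest Gm15441 level of the WT livers, also had the lowest of these medians in WT. Single targets differed in that library. Acot1 was lowest there (166 CPM against 288 and 276 in WT replicates 1 and 2). Cyp4a10 was highest there (2046 CPM against 1339 and 1555). Of the 20, 18 had negative log2 fold changes and 2 positive ones, Angptl4 (0.24) and Plin5 (0.10). The ranges of 11 were apart and lower in KO, against 6.36% of all genes. DESeq2 called 6 lower, against 0.608% of the genes it tested. Without KO replicate 4 the median log2 ratio of the list was -0.49, against -0.51 over all libraries, and edgeR called 6 and DESeq2 11 lower, against 0.454% and 1.74% of genes. Ehhadh, a peroxisomal oxidation enzyme, had a log2 ratio of -2.05 with an adjusted p of 0.0724 in edgeR. The list was chosen with earlier results of these data known, so its counts describe these genes and are not evidence about PPAR-alpha. Whether these targets and Gm15441 share a cause of their lower levels was not tested.

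Genes induced by glucocorticoids, a hormone class to which Txnip and Arrdc2 respond in some cells, had a median that was split between the KO livers. The median log2 level of 12 such genes relative to the WT mean was 0.98 and 0.87 in KO replicates 1 and 2 but -0.10 in KO replicate 4, and the WT livers had 0.01, 0.38 and -0.40. Arrdc2 was likewise above the WT livers in KO replicates 1 and 2 alone. Over all libraries, edgeR called 0 of the 12. DESeq2 called 1 higher, the acute phase gene Lcn2, against 0.608% of the genes it tested. Not every gene was split: the ranges of 2 of the 12, Lcn2 and Klf9, were apart and higher in KO, against 6.02% of all genes. Without KO replicate 4, edgeR called 4 and DESeq2 5 of the 12 higher, against 0.355% and 1.33% of genes. Tat, the tyrosine aminotransferase gene, had 981, 1152 and 570 CPM in the WT livers against 2185, 2586 and 698 CPM in the KO livers. Of 11 genes of glucose uptake and Txnip regulation, 9 were positive and 2 negative, with a median of 0.15. edgeR called 0 of the 11 and DESeq2 1 higher, Foxo1, against 0.608% of the genes it tested. Without KO replicate 4 the median of the list was 0.13. Both tools then called 2 higher, Foxo1 and Ddit4, against 0.355% of genes by edgeR and 1.33% by DESeq2. Ddit4 of that list, a stress gene whose product is known to pair with Txnip protein, had 4.42, 6.43 and 3.70 CPM in WT and 15.7, 30.9 and 3.74 CPM in KO. Its adjusted p in edgeR was 0.569 over all libraries and 0.0221 without KO replicate 4. Foxo1, a factor that insulin restrains, had 53.0, 53.5 and 43.7 CPM in WT against 77.3, 84.7 and 63.8 CPM in KO, with an adjusted p of 0.282 in edgeR and 0.0332 in DESeq2. Without KO replicate 4, edgeR gave Foxo1 an adjusted p of 0.0496. Ddit4 was named after its values were seen. Both lists were likewise chosen with earlier results of these data known, so their counts only describe these genes. Whether these lists have a part in the levels of Arrdc2 or Arrdc3 was not tested.

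**Figure D5:**
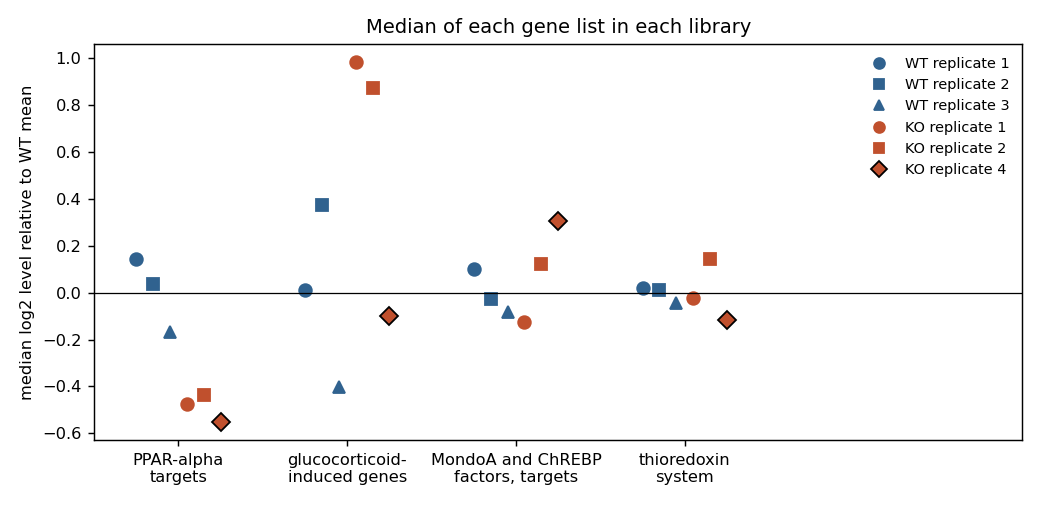
Median log2 level of 4 gene lists in each library relative to the WT mean (y axis); blue WT, orange KO, black edge KO replicate 4. The median of the PPAR-alpha targets lies below the WT livers in all KO livers, while that of the glucocorticoid-induced genes is high in KO replicates 1 and 2 alone.

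Summed markers of neutrophils, stellate cells and adipocytes had WT and KO ranges that were apart, and those of the other cell types overlapped. Among single genes, ranges were apart for 12.4% of those tested, 2 of the 3 tested neutrophil markers, 2 of the 8 hepatocyte markers and 0 of the 8 stellate cell markers. The hepatocyte sum is mostly Alb, the 1 negative log2 fold change of that list against 7 positive. DESeq2 called 2 of the 8 higher in KO, Cps1 and Ass1, against 0.608% of the genes it tested. Without KO replicate 4, edgeR called 2 and DESeq2 3 of them higher, against 0.355% and 1.33% of genes. Dcn, the most abundant stellate cell marker, had 174 CPM in WT and 224 CPM in KO on average. The highest adipocyte sum was that of WT replicate 3, where Cfd had 3.59 CPM against 0 and 0.225 CPM in WT replicates 1 and 2. The summed level of 8 neutrophil markers was 2.57 to 3.95 CPM in WT and 4.85 to 15.7 CPM in KO. Of its 3 tested genes, 2, S100a8 and S100a9, had an unadjusted p under 0.05 by edgeR, against 7.17% of all genes. The other, Ngp, had a log2 fold change of -0.19. KO replicate 1 was highest for S100a8 and S100a9, with 5.67 and 7.28 CPM. They had 1.51 and 2.66 CPM in KO replicate 2, and 1.85 and 2.92 CPM in KO replicate 4. The sum of 8 Kupffer cell and macrophage markers was 255 to 532 CPM in WT and 252 to 461 CPM in KO. That of 7 sinusoidal endothelial markers was 192 to 300.03 and 192 to 228 CPM. Markers of B and plasma cells summed to 27.8 to 53.9 CPM in WT and 21.6 to 36.6 CPM in KO, those of stellate cells and fibroblasts to 246 to 344 and 362 to 400 CPM, those of cholangiocytes to 26.9 to 66.0 and 31.8 to 77.0 CPM and those of adipocytes to 0.321 to 5.98 and 0.0309 to 0.137 CPM. Of 8 neutrophil markers 3 were abundant enough to test, and of 5 adipocyte markers 0, and no list had a marker at 0 counts in all 6 libraries. Their part in the results was not tested.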

How the data were processed

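RNA-seq covered 6 bulk liver libraries, 3 WT and 3 p75NTR KO. The authors deposited whole-number counts per gene, not normalized. From the paper's methods and the submitters' processing notes, libraries were directional and made from polyadenylated RNA, single-end reads were trimmed (Trimmomatic) and aligned (STAR 2.5.0c) against GRCm38.p5 with a GENCODE annotation, and featureCounts and DESeq2 did the counting and the testing. The strand setting of featureCounts was not given in the sources used here. Gene symbols and positions came from GENCODE M21 (49412 of 49671 IDs matched). The libraries held 27107209 to 32664149 counts, and 0 rows named no gene.

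The KO to WT comparison used edgeR 4.0.16 under R 4.3.3 (filterByExpr, TMM, glmQLFit and glmQLFTest), with Benjamini-Hochberg adjustment over 13773 genes and a call at an adjusted p under 0.05. DESeq2 1.42.0 and limma-voom (limma 3.58.1) were alternatives, with other scalings and filters, robust dispersions, each library left out and the replicate number as a block. A fit of replicates 1 and 2 without a block was added after the data were seen. Standard errors given with edgeR log2 ratios were derived from its test, as the size of the ratio over the square root of the F value. That of Gm15441 is likewise only a description. With 3 libraries a group, the smallest p an exact permutation test allows is 0.1. Correlations used log2 of CPM plus 0.1. The members and lists were chosen with earlier results of these data known. Named genes were the members, in each list the 2 most abundant genes and up to 4 DESeq2 calls, the 5 genes closest to Gm15441 and to Txnip, and genes within 100 kb of Txnip. The same-numbered libraries of the groups are not named as pairs.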

Additional observations from a re-analysis of the deposited data

How the results depend on the processing

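Over the alternatives run, Gm15441 kept a log2 fold change between -2.85 and -2.22 with any 1 library left out, and Txnip between -0.95 and -0.42. Leaving out 1 library gave -0.23 to 0.11 for Arrdc1, 0.10 to 0.85 for Arrdc2, -1.40 to -0.14 for Arrdc3, -0.48 to 0.16 for Arrdc4 and -0.10 to 0.072 for Txn1, and the ratio of Gm15441 to Txnip moved from -1.73 to between -2.30 and -1.21. Genes called higher were 0 to 50 and lower 0 to 64 with 1 library left out, and members called 0 to 1. By DESeq2 without KO replicate 4, Arrdc2 had 0.85, Arrdc3 -1.40, Arrdc4 0.17 and Txn1 0.072. That fit called 176 genes higher, 230 lower and 3 members, Gm15441, Arrdc2 and Arrdc3. Genes called higher and lower in the 6 libraries were 82 and 82 by DESeq2 and 1 and 4 by limma-voom. They were 69 and 67 with no filter on low counts and 3 and 6 with robust dispersions. Members called were 1 by DESeq2 and 1 with no filter. In both settings that member was Gm15441, chosen by this contrast, so nothing is read from the call. The causes were not tested. TMM, DESeq2 size factors and plain totals gave each member the same sign and 0 calls.

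Replicate numbers 1 and 2 occur in both groups. The deviations of WT and KO replicates 1 correlated at -0.12 and those of replicates 2 at 0.03. For unlike numbers the values were 0.15 (WT replicate 1 with KO replicate 2) and -0.09 (WT replicate 2 with KO replicate 1). Deviations were taken from group means that include KO replicate 4, so these values cannot decide on pairing. No label names pairs, so the numbers are not used as pairs. With the replicate block on all libraries, Txnip had -0.52 (adjusted p = 0.0474 by edgeR), Arrdc1 0.14, Arrdc3 -1.26, Arrdc4 0.31 and Txn1 0.058. Of 13773 genes tested, 220 were called higher and 248 lower, among them 3 members, Gm15441, Txnip and Arrdc3. In that block fit, WT replicate 3 and KO replicate 4 have no partner and do not bear on the difference. Both block fits thus compare only replicates 1 and 2, as pairs that no label names. They leave almost no replication behind their p-values and calls, which are given as a description only. With the replicate block on replicates 1 and 2, Arrdc1 had 0.14, Arrdc3 -1.25, Arrdc4 0.32 and Txn1 0.061. Txnip had -0.51 with an adjusted p of 0.0694 in edgeR. Of 13898 genes tested, 154 were called higher and 178 lower, among them 2 members, Gm15441 and Arrdc3. The same 4 libraries without a block, chosen after seeing the data, gave 0.16, -1.22, 0.34 and 0.063 for Arrdc1, Arrdc3, Arrdc4 and Txn1. Txnip had -0.47 there, with an adjusted p of 0.518 in edgeR. Of 13898 genes, 131 were then called higher and 157 lower, among them the same 2 members. Counts of members called include Gm15441, chosen by this contrast. With 20 counts in the lowest library, Gm15441 is the member whose level is limited most by depth.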
